A study of Drosophila melanogaster with 20 samples.

Results

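A set of 9 genes known from the oocyte and the early embryo was followed across 12 pools of whole female Drosophila melanogaster after 3 insecticidal sprays. The genes are exu, yps, png, smg, capu, spir, zld, gammaTub37C and yl. They were chosen by name, as all spots on the array whose probe annotation carried a single gene symbol and whose symbol was one of these. This gave 30 of the 16896 spots and 9 of the 2377 genes with a single symbol. capu had 10 spots, exu and spir had 4 each and the other genes had 2 each, always as neighbouring duplicates. All 9 genes were measured on all 20 arrays and in all 12 pools, and all 9 were tested.

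The mother loads the growing egg with yolk and with messenger RNAs that are stored, moved to set places in the egg and translated or destroyed only after the egg is laid. yl encodes Yolkless, the receptor with which the oocyte takes up yolk protein. gammaTub37C encodes the maternal form of gamma-tubulin, which starts new microtubules, png encodes the kinase that switches on translation of stored messages when the egg is activated, and smg encodes an RNA-binding protein that removes maternal messages. exu and its partner yps, a Y-box protein, act in the transport of messages within the oocyte, capu (a formin) and spir build the actin mesh of the oocyte, and zld is a maternally supplied activator of the first zygotic genes. Ovaries make up much of a mature female, so in whole flies these transcripts may reflect ovary RNA. That reading could not be checked here against other ovary markers. Fewer cells of a type and less RNA per cell cannot be told apart in such samples.

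The flies were adult females of the Oregon-R strain, 4 to 10 days old, kept under 16 h light and 8 h dark at 60% humidity. All were sprayed with 2 mL of liquid in a spraying tower, and RNA of about 240 flies per pool was taken 6 h later. The combination held 0.1 mg/mL of a black pepper (Piper nigrum) seed extract with 0.004 mg/mL of pyrethrin, the pyrethrin spray held 0.04 mg/mL, and the pepper extract spray held 0.2 mg/mL. The carrier was 99% ethanol, which was also the control spray, so treated and control flies share it. Each treatment had 4 treated pools, named here by the replicate numbers of the labels, and each array set a treated pool against an ethanol control pool. The combination and the pepper extract had 8 arrays each, 2 per pool with the dyes exchanged. Each of the 4 pyrethrin pools had 1 array, on which Cy3 always marked the treated RNA. These 4 pools shared 2 control extracts, 1 for pools 1 and 2 and 1 for pools 4 and 5. For the pepper extract, 2 arrays, the reverse arrays of pools 3 and 4, carry titles that name another study.

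All values below are treated over control on the log2 scale, with the array median at 0. A ratio holds no level, so the 9 genes cannot be ranked by abundance here. Pools are named by their treated flies, but a difference between pools in a ratio can come from the treated or the control flies. These cannot be told apart here. The labels do not state which RNA is on top of the ratio. Treated over control is taken as likely, since the titles of the arrays, apart from those that name another study, give the treated pool first and the ethanol pool second. If control were on top, every sign of a log2 ratio below would turn, while the counts of genes called and the correlations between genes would stay. A separate question is whether the values are written by treatment or by dye channel. With the mean of each treatment and dye orientation removed, the 2 arrays of a pool correlated positively in 8 of 8 pools (mean 0.187), while arrays of different pools averaged -0.0619 (exact one-sided permutation p = 0.00174 over 576 pairings). This bears on treatment against channel, and says nothing about which RNA is on top. The values read by channel stand in the closing section. The arrays held 13953 to 16853 values each, and duplicate spots correlated at 0.172 to 0.7283 within an array.

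None of the 9 genes passed an adjusted p of 0.05 against ethanol after any of the 3 sprays, by limma with Benjamini-Hochberg adjustment over 11526 features. At that threshold 0% of all features were called after the combination, 0.0781% after pyrethrin and 0% after the pepper extract. At an unadjusted p below 0.05 the count was 1 of 9 after the combination (yl), 1 of 9 after pyrethrin (yps) and 0 of 9 after the pepper extract, against 8.62%, 10.5% and 3.22% of all features. The mean of a gene lay above ethanol for 6, 5 and 3 of the 9 genes, in the same order of treatments, against 53.7%, 48.6% and 51.4% of all features. The median log2 ratio over the 9 genes was 0.0067 after the combination, 0.031 after pyrethrin and -0.0096 after the pepper extract, while over all features it was 0.015, -0.0056 and 0.0043. The 9 genes thus had no common shift against ethanol, and their ratios were small: the median size was 0.051, 0.069 and 0.054 for the 9 genes and 0.11, 0.11 and 0.079 for all features. These sizes are not measured alike. The 9 genes average 2 to 10 spots each, while features without a single symbol are single spots. The median limma standard error was 0.0999, 0.104 and 0.0999 for the 9 genes and 0.124, 0.128 and 0.125 for all features.

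The same sign in all 4 pools was seen for 1 of 9 genes after the combination (capu, above ethanol), 2 of 9 after pyrethrin (yps below, smg above) and 2 of 9 after the pepper extract (yps and yl, both below). Over all features that share was 15.7%, 19.7% and 14.1%, which for 9 genes would be 1 or 2 genes. By direction, 8.13%, 9.51% and 7.29% of all features lay above ethanol in every pool (1, 1 and 0 of the 9 genes), and 7.55%, 10.1% and 6.8% lay below it (0, 1 and 2 of the 9 genes), in the same order of treatments. The 95% confidence intervals of the 27 comparisons with ethanol reached from -0.67 to 0.66 on the log2 scale, with both ends in gammaTub37C.

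**Figure D1:**
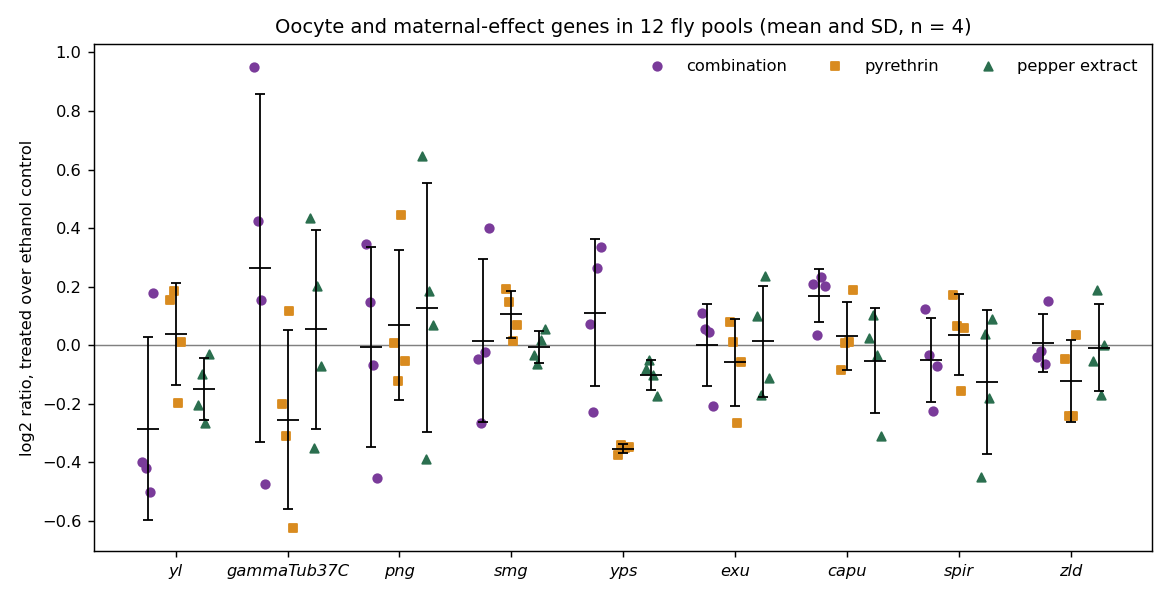
Log2 ratio of treated over ethanol control (vertical axis) of each gene (horizontal axis) in every fly pool, 1 point per pool, with the mean and SD of the 4 pools of each treatment as black bars. gammaTub37C spans the widest range, the 4 pyrethrin pools of yps lie together near -0.35, and the combination pool of yl that lies apart from the other 3 is pool 6.

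yl, the yolk protein receptor, was the lowest of the 9 genes after the combination. It had log2 ratios of -0.50, -0.40, -0.42 and 0.18 in combination pools 2, 4, 5 and 6, of 0.19, -0.20, 0.012 and 0.15 in pyrethrin pools 1, 2, 4 and 5, and of -0.20, -0.098, -0.27 and -0.03 in pepper extract pools 1 to 4. Of the combination pools, 3 of 4 lay below every pyrethrin and pepper extract pool, and combination pool 6 lay above ethanol. The mean was -0.29 ± 0.31 after the combination, 0.039 ± 0.17 after pyrethrin and -0.15 ± 0.11 after the pepper extract (SD, n = 4 each). The combination mean is a 1.22-fold lower level than in ethanol flies, with a limma standard error of 0.11, a 95% interval of -0.53 to -0.045, an unadjusted p of 0.0233 and an adjusted p of 0.546. Without combination pool 6 it was -0.44 (limma adjusted p = 0.228).

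The low yl values of the combination were found in 1 dye orientation. With the treated RNA in Cy3, combination pools 2, 4, 5 and 6 gave -1.12, -0.68, -0.75 and -0.26, and with it in Cy5 the same pools gave 0.11, -0.12, -0.093 and 0.62. Every pool was lower on its Cy3 array than on its Cy5 array. In pyrethrin pools, all in Cy3, the uncorrected values ran from -0.45 to -0.065, and in the pepper extract pools the Cy3 arrays averaged -0.24 ± 0.14 and the Cy5 arrays -0.065 ± 0.17 (SD, n = 4 each). Averaging the 2 orientations removes a dye effect that is the same on both. On the Cy3 arrays alone yl was called after the combination, at -0.70 (limma adjusted p = 0.0371), in a setting that called 370 features. The part of the dye in that value was not tested beyond these settings.

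gammaTub37C, the maternal gamma-tubulin, varied most between pools. Its log2 ratio was 0.15, 0.95, 0.42 and -0.48 in combination pools 2, 4, 5 and 6, -0.31, 0.11, -0.62 and -0.20 in pyrethrin pools 1, 2, 4 and 5, and 0.435, -0.35, 0.20 and -0.071 in pepper extract pools 1 to 4. Each treatment had pools on both sides of ethanol, and the 3 groups overlapped. The means were 0.26 ± 0.59 after the combination, -0.26 ± 0.31 after pyrethrin and 0.053 ± 0.34 after the pepper extract (SD, n = 4 each), with limma adjusted p of 0.698, 0.68 and 1.0. Before the dye correction, which took 0.195 off, the 4 pyrethrin arrays averaged -0.06. The SD over the 12 pools was 0.45, against 0.13 for zld, the least variable of the 9 genes. The combination mean was 0.034 without pool 4 and 0.51 without pool 6 (limma adjusted p = 0.974 and 0.285).

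The pool differences of gammaTub37C were seen on both arrays of a pool, which compare the same treated and control extracts. In combination pools 2, 4, 5 and 6 the Cy3 arrays gave 0.39, 1.10, 0.52 and -0.25 and the Cy5 arrays gave -0.081, 0.80, 0.33 and -0.70, the same order of pools on both. In pepper extract pools 1 to 4 the Cy3 arrays gave 0.78, -0.11, 0.48 and -0.075 and the Cy5 arrays 0.087, -0.59, -0.071 and -0.067. Over the 8 pools with exchanged dyes, and after removing the mean of each treatment and orientation, the arrays of a pool correlated at 0.889 (exact permutation p = 0.0104, adjusted over the 9 genes 0.0938), with a Spearman rho of 0.881. The other 8 genes had correlations of -0.04 to 0.672 on this measure, lowest for spir and next highest for smg. The 2 duplicate spots of gammaTub37C differed by 0.15 on average. A second gamma-tubulin gene exists in the fly, and whether its RNA also binds these spots was not tested.

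png, the egg activation kinase, had log2 ratios of -0.067, 0.34, 0.15 and -0.45 in combination pools 2, 4, 5 and 6, of -0.12, 0.44, -0.053 and 0.0078 in pyrethrin pools 1, 2, 4 and 5, and of 0.65, -0.39, 0.19 and 0.068 in pepper extract pools 1 to 4. No treatment had all pools on 1 side of ethanol. The means were -0.0069 ± 0.34 after the combination, 0.069 ± 0.26 after pyrethrin and 0.13 ± 0.43 after the pepper extract (SD, n = 4 each). The highest adjusted p of limma for png was 1.0 and the lowest 0.911. The pepper extract mean was -0.045 without pool 1 and 0.30 without pool 2. png had the largest mean dye effect of the 9 genes, 0.26. Its pepper extract arrays averaged 0.67 ± 0.57 with the treated RNA in Cy3 and -0.42 ± 0.44 with it in Cy5 (SD, n = 4 each). The combination arrays showed no such split, at -0.031 ± 0.27 in Cy3 and 0.017 ± 0.46 in Cy5 (SD, n = 4 each). The pyrethrin mean of png therefore depends on the dye correction. It was 0.33 before correction, 0.35 with the dye effect of the combination pools alone and -0.22 with that of the pepper extract pools alone (limma adjusted p = 0.312, 0.261 and 0.593). Over the 3 combination pools that hold both duplicate spots (2, 4 and 5), the first spot averaged 0.27 and the second 0.011.

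smg, whose protein clears maternal messages, stayed close to ethanol in most pools. It had log2 ratios of -0.022, -0.048, -0.27 and 0.40 in combination pools 2, 4, 5 and 6, of 0.15, 0.013, 0.067 and 0.19 in pyrethrin pools 1, 2, 4 and 5, and of -0.035, -0.064, 0.019 and 0.054 in pepper extract pools 1 to 4. All 4 pyrethrin pools lay above ethanol, with a mean of 0.10 ± 0.08 (SD, n = 4) and a limma adjusted p of 0.761. The combination mean was 0.015 ± 0.28 and the pepper extract mean -0.0066 ± 0.053 (SD, n = 4 each). Combination pool 6 was the highest of the 12 pools for smg, and the combination mean without it was -0.11. That pool was also the highest of the combination for yl and the lowest for gammaTub37C and png.

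yps, the Y-box partner of Exuperantia, gave the most even pyrethrin values, with the smallest SD of the 9 genes in any treatment. It had log2 ratios of 0.26, 0.073, -0.23 and 0.34 in combination pools 2, 4, 5 and 6, of -0.34, -0.35, -0.35 and -0.375 in pyrethrin pools 1, 2, 4 and 5, and of -0.081, -0.052, -0.10 and -0.17 in pepper extract pools 1 to 4. The 4 pyrethrin pools lay below all 8 others, and their SD was 0.014. The pyrethrin mean of -0.35 is a 1.28-fold lower level than in ethanol flies, with a limma standard error of 0.098, a 95% interval of -0.56 to -0.14, an unadjusted p of 0.00265 and an adjusted p of 0.23. The error of the dye correction, which the 4 pyrethrin pools share, is not in that standard error, interval or p-value. The combination mean was 0.11 ± 0.25 and the pepper extract mean -0.10 ± 0.052 (SD, n = 4 each), neither past the threshold. The difference of the combination from pyrethrin was 0.47 (95% interval 0.17 to 0.76, limma unadjusted p 0.00393, adjusted p 0.276), the smallest p of the 9 genes in any difference between treatments. An unadjusted p below 0.05 was reached by 12.3% of all features in that difference, where 1 of the 9 genes reached it.

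The pyrethrin value of yps depends on the dye correction. All pyrethrin arrays held the treated RNA in Cy3, and before correction they gave -0.45, -0.46, -0.46 and -0.49 in pools 1, 2, 4 and 5. In the pepper extract pools yps gave -0.345, -0.20, -0.31 and -0.42 with the treated RNA in Cy3 and 0.18, 0.098, 0.11 and 0.069 with it in Cy5, so that the sign followed the dye in all 4 pools. In combination pools 2, 4, 5 and 6 it gave 0.086, 0.071, -0.35 and 0.62 in Cy3 and 0.44, 0.075, -0.11 and 0.053 in Cy5, with no such split. Corrected with the dye effect of the pepper extract pools alone, the pyrethrin mean was -0.25 (limma adjusted p = 0.256). With that of the combination pools alone it was -0.46 (adjusted p = 0.0381), and with no correction it was -0.46 (adjusted p = 0.0378). On the Cy3 arrays alone the difference of the combination from pyrethrin was 0.57 (limma adjusted p = 0.659).

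**Figure D2:**
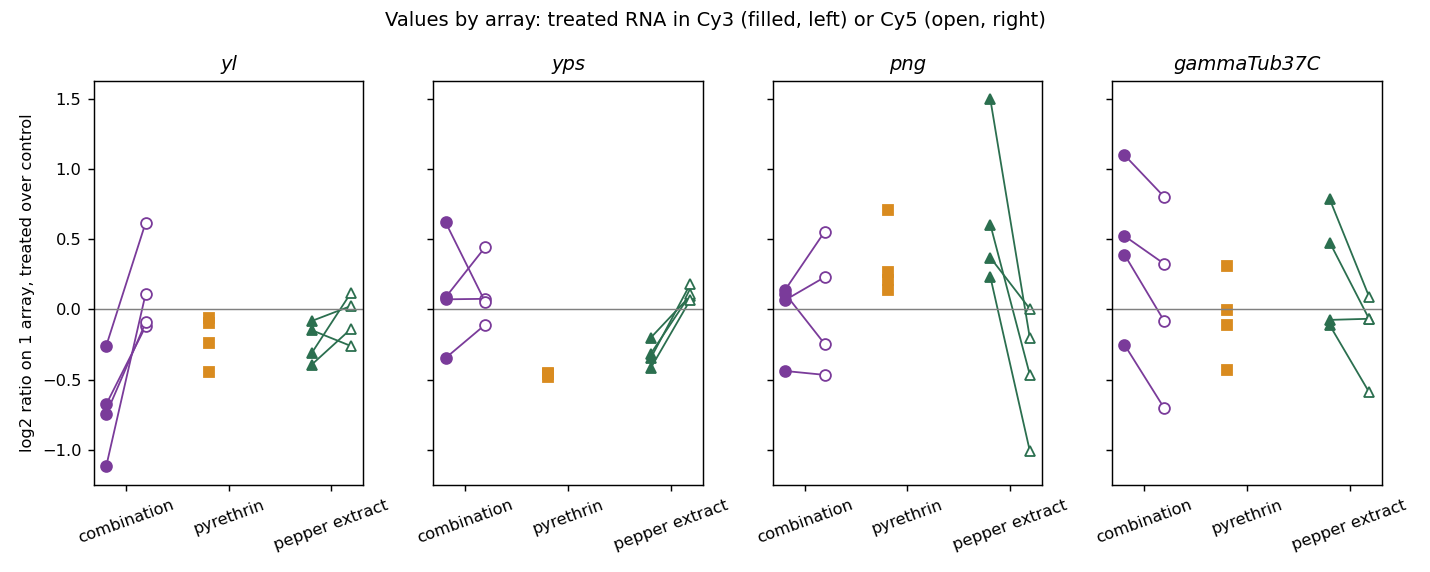
Log2 ratio on each array (vertical axis) for yl, yps, png and gammaTub37C by treatment, filled symbols with the treated RNA in Cy3 and open symbols with it in Cy5, with lines joining the 2 arrays of a pool. For yl after the combination and yps and png after the pepper extract the 2 orientations lie at different levels, while gammaTub37C keeps the order of the combination pools on both.

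exu, which is needed to localise maternal messages in the oocyte, had log2 ratios of 0.044, 0.11, 0.055 and -0.21 in combination pools 2, 4, 5 and 6, of 0.011, -0.265, -0.059 and 0.078 in pyrethrin pools 1, 2, 4 and 5, and of 0.098, -0.17, 0.24 and -0.11 in pepper extract pools 1 to 4. Its means were 0.00068 ± 0.14, -0.059 ± 0.15 and 0.013 ± 0.19 in the same order (SD, n = 4 each). Both signs appeared after every spray. exu was spotted as 2 duplicate pairs that did not follow each other. The duplicates of the first pair differed by 0.41 on average and those of the second by 0.057. After the pepper extract the first pair averaged 0.12 and the second -0.084, and in combination pool 4 they gave -0.28 and 0.41.

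capu, the formin of the oocyte actin mesh, was above ethanol in all 4 combination pools. Its log2 ratios were 0.23, 0.21, 0.035 and 0.20 in combination pools 2, 4, 5 and 6, 0.0086, 0.0091, 0.19 and -0.084 in pyrethrin pools 1, 2, 4 and 5, and 0.023, 0.10, -0.033 and -0.31 in pepper extract pools 1 to 4. The combination mean was 0.17 ± 0.09, the pyrethrin mean 0.031 ± 0.11 and the pepper extract mean -0.054 ± 0.18 (SD, n = 4 each). The combination mean had a limma unadjusted p of 0.0834 and an adjusted p of 0.61. All 5 duplicate pairs of capu had a combination mean above 0, from 0.094 to 0.32, over 3 or 4 pools each. Within single pools the pairs disagreed. In combination pool 5 the first pair gave 0.48 and the fourth -0.345, and in pool 4 the fifth gave -0.20. Over 9 to 12 pools, pairs 1 to 5 correlated with yl at -0.732, 0.618, -0.567, 0.0914 and -0.0543. The second pair, at 0.19, includes a pool 6 value of 0.52 that holds 1 spot reading 2.74 on the Cy5 array. In pools 4 and 5 that pair gave 0.145 and -0.085. The means were not recomputed without that spot.

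spir, the actin nucleator that works with capu, had log2 ratios of -0.22, 0.12, -0.034 and -0.07 in combination pools 2, 4, 5 and 6, of 0.067, -0.16, 0.059 and 0.17 in pyrethrin pools 1, 2, 4 and 5, and of -0.45, 0.039, -0.18 and 0.088 in pepper extract pools 1 to 4. The lowest of these, pepper extract pool 1, rests on 1 spot that read -3.38 on its Cy5 array. The means were -0.051 ± 0.14 after the combination, 0.036 ± 0.14 after pyrethrin and -0.13 ± 0.25 after the pepper extract (SD, n = 4 each). With the median over spots in place of the mean, the pepper extract value was -0.015. For capu, 2 spots were also far off, at 2.74 in combination pool 6 and -2.56 in pepper extract pool 4, both on Cy5 arrays.

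zld, the activator of the zygotic genome, had log2 ratios of -0.065, -0.04, -0.02 and 0.15 in combination pools 2, 4, 5 and 6, of -0.24, -0.24, 0.035 and -0.048 in pyrethrin pools 1, 2, 4 and 5, and of -0.055, 0.19, -0.17 and -0.00096 in pepper extract pools 1 to 4. Its means were 0.0067 ± 0.098, -0.12 ± 0.14 and -0.0096 ± 0.15 in the same order (SD, n = 4 each). It had the smallest spread of the 9 genes, and no treatment had all pools on 1 side. After the pepper extract its Cy3 arrays averaged 0.24 ± 0.095 and its Cy5 arrays -0.26 ± 0.26 (SD, n = 4 each), so that its mean near 0 joins opposite values. The pyrethrin arrays of zld averaged -0.024 before the dye correction.

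Between treatments, 0 of the 9 genes passed an adjusted p of 0.05 in limma in any of the 3 differences, where 0% of all features did. For the combination over the pepper extract the differences ran from -0.14 (yl) to 0.22 (capu), for the combination over pyrethrin from -0.32 (yl) to 0.52 (gammaTub37C), and for pyrethrin over the pepper extract from -0.31 (gammaTub37C) to 0.19 (yl). An unadjusted p below 0.05 was reached by 0, 1 and 0 of the 9 genes in the same order, against 4.55%, 12.3% and 5.75% of all features. The difference of the combination from pyrethrin in gammaTub37C had a 95% interval of -0.053 to 1.09 and in yl of -0.67 to 0.023. Both rest on the dye correction of the pyrethrin arrays, which averaged -0.06 for gammaTub37C and -0.21 for yl before it. The error of that correction is not in these intervals. The doses differ between the sprays, so these differences are not tests of an interaction.

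The 9 genes did not vary as 1 block between pools. Of the 36 pairs, 16 (44.4%) had a positive Pearson correlation over the 12 pools, against 50.2% of the 1863415 pairs among the 1931 genes with a symbol measured in all pools. The median correlation was -0.0847 for the 36 pairs and 0.00166 for all pairs. A correlation of 0.6 or more in size was seen in 3 of 36 pairs (8.33%), against 12.2% of all pairs. Permutation p-values were adjusted over the 36 pairs, and pyrethrin pools that share a control extract are not fully independent points.

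The larger correlations had both signs. smg and yl varied together (Pearson r = 0.787, permutation p = 0.00072, adjusted p = 0.0259; Spearman rho = 0.797, adjusted p = 0.0443). Without the 2 pools farthest from the median of smg, r was 0.798. png and gammaTub37C had r = 0.728 (adjusted p = 0.0898) and rho = 0.783 (adjusted p = 0.0443), with r = 0.675 without the 2 farthest pools. gammaTub37C and yl had r = -0.769 (adjusted p = 0.0637) and rho = -0.783 (adjusted p = 0.0443), with r = -0.799 without the 2 farthest pools. smg and gammaTub37C had r = -0.598 (adjusted p = 0.354). Of all gene pairs, 1.14% had a correlation as high as smg and yl, 2.29% one as high as png and gammaTub37C, and 1.34% one as low as gammaTub37C and yl.

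**Figure D3:**
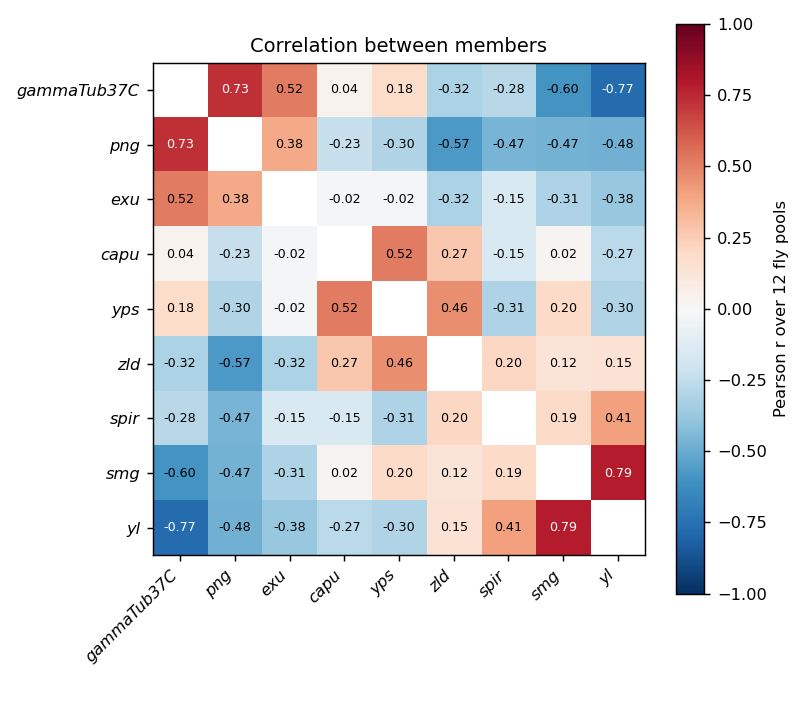
Pearson correlation over the 12 fly pools for each pair of the 9 genes, both axes listing the genes, red for positive and blue for negative. gammaTub37C and png stand on one side and smg and yl on the other, with 0.73 and 0.79 inside each pair and -0.77 between gammaTub37C and yl.

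With the mean of each treatment removed, png and gammaTub37C correlated at 0.899 (exact permutation p within treatments = 0.000362, adjusted 0.013). It was the 1 pair of 36 past the threshold in that form. smg and yl then correlated at 0.827 (exact p = 0.0287, adjusted 0.207) and gammaTub37C and yl at -0.682 (exact p = 0.073, adjusted 0.328). To keep both values of a pair off the same array, 1 gene was also taken from the Cy3 array and the other from the Cy5 array of the 8 pools with exchanged dyes. png and gammaTub37C then correlated at 0.602 and 0.861 (exact permutation p = 0.0677 and 0.0139, not adjusted) in the 2 arrangements. smg and yl correlated at 0.798 and 0.574 (exact permutation p = 0.0955 and 0.214), and gammaTub37C and yl at -0.913 and -0.268 (exact permutation p = 0.00174 and 0.743).

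The call for smg and yl was a narrow one. It was lost without pepper extract pool 3, without combination pool 4, 5 or 6, and without any 1 of the 4 pyrethrin pools, with r between 0.756 and 0.794. Without the 2 arrays that carry foreign titles r was 0.475, and on the Cy3 arrays alone it was 0.259. The other 2 of the 4 highest correlations were 0.521 for yps and capu (adjusted p = 0.423, 0.224 without the 2 farthest pools) and 0.519 for exu and gammaTub37C (adjusted p = 0.423, 0.591 without the 2 farthest pools). Correlations at least as high as these were found in 9.78% and 9.86% of all gene pairs. With the treatment means removed, yps and capu correlated at 0.511 (exact permutation p within treatments = 0.00586, adjusted 0.105). Between the Cy3 and Cy5 arrays they gave 0.697 and 0.629 (exact permutation p = 0.0122 and 0.026, not adjusted). For exu and gammaTub37C the same measures gave 0.505 (exact permutation p = 0.116, adjusted 0.416), and 0.762 and 0.612 (exact permutation p = 0.0521 and 0.115). Taken by its 2 duplicate pairs, exu correlated with gammaTub37C at 0.0144 on the first (11 pools) and 0.476 on the second (12 pools), with permutation p of 0.965 and 0.117.

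**Figure D4:**
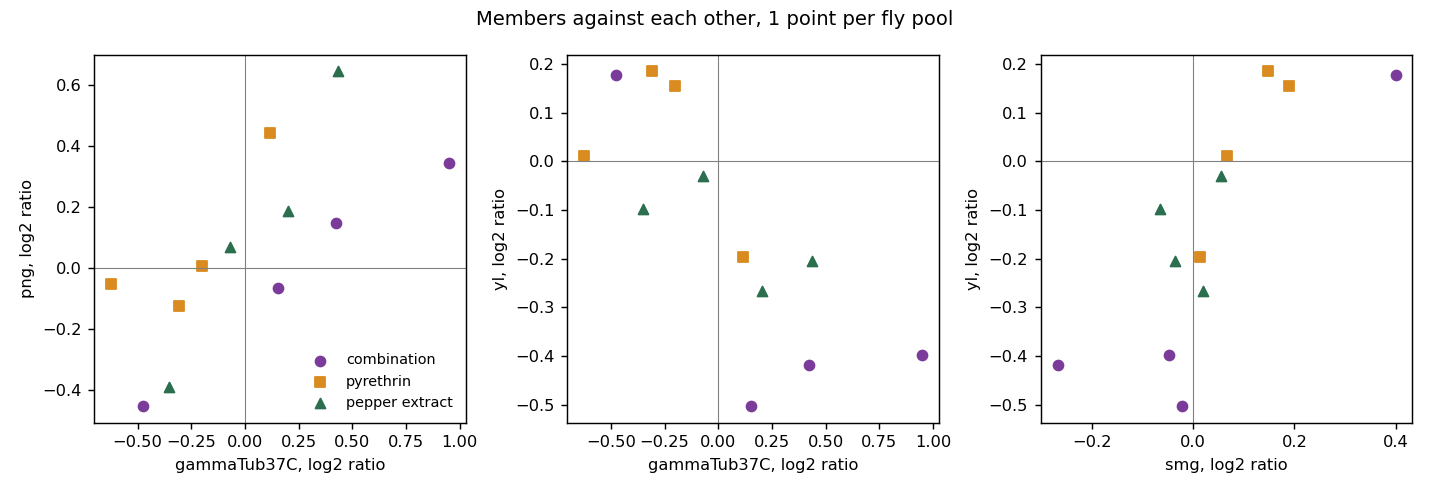
Log2 ratios in each of the 12 fly pools for png against gammaTub37C, yl against gammaTub37C and yl against smg, 1 point per pool and 1 symbol per treatment. Pools of every treatment are spread along both relations with gammaTub37C, while the pepper extract pools lie close together in smg (-0.064 to 0.054). Combination pool 6 is low in gammaTub37C (-0.48) and the highest in smg (0.40).

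These 4 genes also followed the main difference between the ratios of the pools across the other genes. The leading axis of the 1922 other genes with a symbol measured in all 12 pools held 36.4% of their variance, and the second axis 13.2%. Pool scores ran from -10.4 in combination pool 6 to 11.8 in combination pool 4, the 2 ends being pools of the same treatment. gammaTub37C correlated with the axis at 0.925 (permutation p = 3e-05, adjusted over the 9 genes 0.00027; rho = 0.902) and png at 0.842 (adjusted p = 0.00202; rho = 0.888). yl did so at -0.759 (adjusted p = 0.0166; rho = -0.748) and smg at -0.677 (adjusted p = 0.0264; rho = -0.671). Without the 2 pools farthest from the median score, r was 0.881, 0.811, -0.658 and -0.563 for these genes. With the treatment means removed, gammaTub37C (0.957, adjusted exact p = 0.00228) and png (0.906, adjusted exact p = 0.000651) passed, while yl (-0.774, adjusted exact p = 0.0547) and smg (-0.639, adjusted exact p = 0.248) did not.

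A high correlation with this axis was common on the array. The median size over all genes was 0.474. As large a correlation as that of gammaTub37C was seen in 2.76% of genes, as that of png in 10.9%, as that of yl in 19.7% and as that of smg in 27.9%. exu (0.469), zld (-0.38), spir (-0.335), capu (-0.048) and yps (-0.027) did not pass, with shares of 50.4% to 97.1%. Over the 12 pools the axis score correlated with the share of missing values at 0.442 (permutation p = 0.15, rho = 0.503, 0.506 without the 2 farthest pools). With the correlation of duplicate spots it was 0.5 (permutation p = 0.098, rho = 0.517, 0.806 without the 2 farthest pools). The part of array quality in the pattern was not tested beyond these values.

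**Figure D5:**
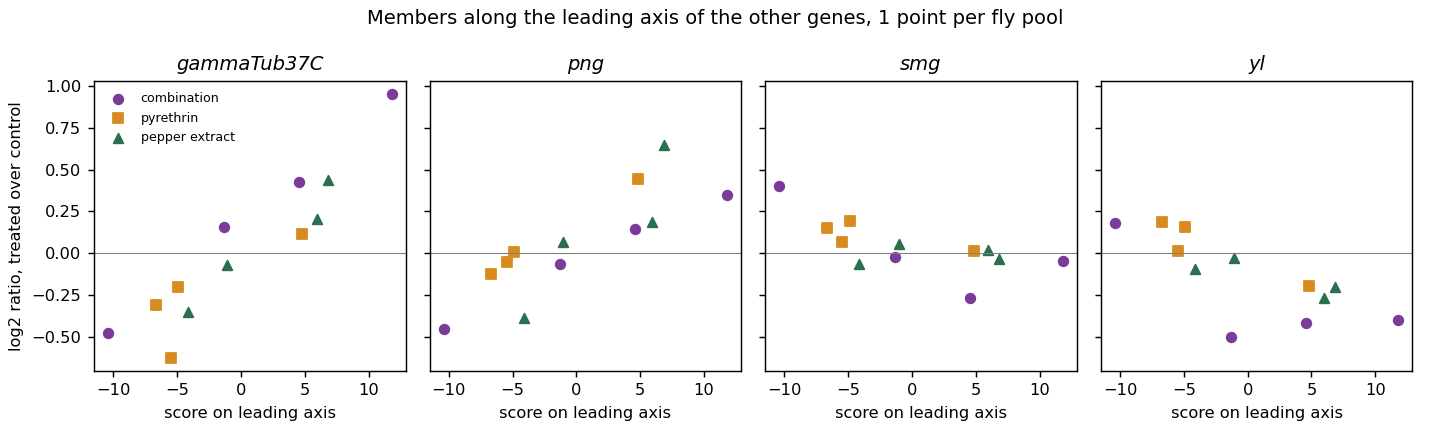
Log2 ratio of gammaTub37C, png, smg and yl (vertical axes) against the score of each of the 12 fly pools on the leading axis of the other genes (horizontal axes, no unit). gammaTub37C and png lie higher in pools with high scores and smg and yl lower, and the pools of each treatment are spread along the axis.

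The genes most like the mean of the 9 over the 12 pools were CG5466 (r = 0.858), Rm62 (0.854), CG12708 (0.854), mdy (0.848), CG9986 (0.847) and CG10254 (0.846), among 1922 candidates. That mean itself moved little, from -0.0888 in pepper extract pool 2 to 0.147 in combination pool 4. It joins genes that went in opposite directions between pools, and why it moved little was not tested.

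Few other genes of the same processes could be found by symbol, and 11078 of the 16896 spots carry no symbol. Whether the missing genes are among those spots was not tested. Of lists of related genes, 15 genes outside the 9 were tested and 0 of them passed an adjusted p of 0.05 in limma after any spray, while 4 of the 45 comparisons had an unadjusted p below 0.05. By treatment these were 1 of 15 after the combination, 2 of 15 after pyrethrin and 1 of 15 after the pepper extract, beside 8.62%, 10.5% and 3.22% of all features. Of 58 genes of maternal patterning and message localisation, 2 were tested. pum, a translational repressor, had log2 ratios of -0.17 after the combination, -0.32 after pyrethrin and -0.039 after the pepper extract, and Hrb27C, an RNA-binding protein, 0.0015, 0.08 and 0.022. Of 33 egg activation genes, 5 were tested (plu, Fs(2)Ket, wisp, twin and Pop2). Their highest and lowest values were 0.21 (Pop2) and -0.10 (Fs(2)Ket) after the combination, 0.075 (twin) and -0.26 (Fs(2)Ket) after pyrethrin, and 0.021 (twin) and -0.56 (plu) after the pepper extract. plu, which encodes a subunit of the png kinase, was measured in 3 pepper extract pools and lay below ethanol in all of them (limma standard error 0.21, unadjusted p 0.0193, adjusted p 1.0), while png averaged 0.13 there.

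Of 25 eggshell and follicle cell genes, br and Cad74A were tested. br, a transcription factor that patterns the eggshell, had log2 ratios of 0.29 after the combination (above ethanol in 4 of 4 pools, limma unadjusted p 0.0142, adjusted p 0.515), -0.071 after pyrethrin and -0.053 after the pepper extract. Cad74A, a follicle cell cadherin, had 0.21 (above ethanol in 1 of 3 pools), 0.25 (3 of 4) and 0.12 (2 of 3). Of 14 genes of yolk and its uptake, 4 were tested besides yl. Their highest and lowest values were 0.18 (LpR1) and -0.048 (LpR2) after the combination, 0.016 (Mtp) and -0.43 (apolpp) after pyrethrin, and 0.10 (apolpp) and 0.01 (LpR1) after the pepper extract. LpR1 and LpR2 are lipophorin receptors of the same family as Yolkless. Of 21 actin and microtubule partners, cpa, a subunit of capping protein, had 0.051, 0.13 and 0.017, and flr, an actin disassembly factor, had 0.18, -0.064 and 0.14.

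Of 16 marker genes of the female germline and ovary, 3 were on the array under a single symbol, and all 3 are among the 9 genes (yl, exu and gammaTub37C). The labelled tissue, the whole female, can therefore not be checked against independent ovary markers here. Of 15 markers of testis and male accessory gland, 5 were tested. The means of all 5 lay above ethanol after pyrethrin, from 0.057 to 1.05, against 48.6% of all features. By pool, these markers lay above it in 2 to 4 of the 4 pyrethrin pools. ocn (1.05, limma adjusted p = 0.0394) was the only marker past the threshold. The pyrethrin values come from Cy3 arrays with the dye correction taken from the other sprays. The error of that correction is not in the limma p-value. After the combination the mean of 1 of the 5 lay above ethanol and after the pepper extract that of 3 of the 5, against 53.7% and 51.4% of all features. The tested markers of fat body (3), muscle (3), nervous system and eye (3), midgut (1) and hemocytes (2) had 0 genes past the threshold after any spray. Among them 2 values had an unadjusted p below 0.05 in limma, 0.50 for CG5966 of the fat body list after the combination (adjusted p 0.524) and 0.41 for the muscle gene Tm2 after the pepper extract (adjusted p 1.0). The part of these markers in the values of the 9 genes was not tested.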

How the data were processed

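RNA of treated and ethanol-sprayed whole females was compared on 20 two-colour spotted cDNA arrays. The deposited values are log2 ratios per spot; how the authors normalized them is not given in the sources used here, nor is the image analysis. The base was inferred from the range, since the largest value was 14.29 in size and natural logarithms of 16-bit signals end at 11.09. Of all values 5.357% were missing. Signal intensities were not used here.

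Array medians were subtracted, spots of a single symbol were averaged, and the 2 dye-exchanged arrays of a pool were averaged. Pyrethrin arrays were corrected by the mean dye effect over the 8 exchanged pairs (at least 4 required). That mean was treated as known, so its own error is in no standard error, interval or p-value of pyrethrin or of differences from it. Features measured in at least 3 of 4 pools of every treatment were kept (11526, 2169 with a symbol). One limma 3.58.1 model (R 4.3.3, statmod 1.5.0) over the 12 pools gave a mean per treatment, with weights for averaged pairs (1.01) and single arrays (0.984) and the control extract as random block (correlation 0.0531). Tests were two-sided, and p-values were adjusted over all features at a threshold of 0.05. Correlations used 100000 permutations, or all 13824 within treatments and 576 between arrays (scipy 1.17.1). The tests were checked on simulated data.

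Nothing in the labels says that pools came from separate cultures, so p-values measure the spread between these pools. Replicate numbers were checked for pairing: same-numbered pools of different treatments correlated at -0.326 to 0.149, above 0.1 in 1 of 8 pairs, so they were not taken as pairs.

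The 9 genes and the gene lists were chosen with earlier results of these data known. The text names all 9 genes, the 4 highest and 2 lowest correlations, the 6 genes most like their mean, and of each of the 5 lists of related genes every tested gene where there were 3 or fewer, otherwise the highest and lowest per treatment. The cell type marker lists had no such rule, and ocn, CG5966 and Tm2 were named after their values were seen. No gene sequences or genome positions are given, since the labels name no genome build. Alternatives tried are listed in the closing section.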

Additional observations from a re-analysis of the deposited data

Results flagged for a closer look

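In 27 groups (9 genes in 3 treatments, 4 pools each), 2 had a pool that stood apart by Dixon's 95% criterion. Chance gives about 1 such group in 20. For yl, combination pool 6 had a log2 ratio of 0.179, while the other 3 combination pools lay between -0.503 and -0.399. The gap was 0.847 of the whole range. For capu, combination pool 5 had a log2 ratio of 0.0353, while the other 3 lay between 0.20 and 0.23, a gap of 0.836 of the whole range. The lower end of these, 0.20 in pool 6, includes 1 spot that read 2.74 on its Cy5 array. Whether the flag holds without that spot was not tested. All 4 capu values stayed above ethanol.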

How the results depend on the processing

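The results were recomputed under 28 alternatives. Of the values of the 9 genes under them, 908 were not counted as reversed and stayed on their side of the threshold. A further 33 were reversed, and 4 kept their direction and newly passed the threshold. Of the reversed values 3 passed it too. A value within 1 standard error of 0 in both settings was given no direction. It counts among the 908 even where its sign turned. Some of the 908 could not move. Leaving out a pool of another treatment does not change a treatment mean, and the dye correction acts on pyrethrin arrays alone. With control on top of the ratio in place of treated, every sign would turn. If the ratios are read by channel (Cy5 over Cy3), the features called were 1948 after the combination, 82 after pyrethrin and 2296 after the pepper extract, and 238, 5 and 9 for the combination over the pepper extract, the combination over pyrethrin and pyrethrin over the pepper extract. Read this way, after the combination yl was 0.41, gammaTub37C -0.18, smg -0.068 and capu -0.016. After pyrethrin yps was 0.47, gammaTub37C 0.22, png -0.27, smg -0.10, spir -0.14 and zld 0.022. After the pepper extract yps was 0.22, png -0.55, zld -0.25, capu 0.12, gammaTub37C -0.21 and yl 0.085. In this reading 4 of these values were called in limma, yl after the combination (adjusted p = 0.00378) and png (0.00238), zld (0.0231) and yps (0.0492) after the pepper extract. The combination over the pepper extract was -0.21 for yps and 0.33 for yl. The combination over pyrethrin was -0.47 for yps, -0.39 for gammaTub37C and 0.42 for yl. Pyrethrin over the pepper extract was 0.25 for yps, 0.43 for gammaTub37C and -0.092 for yl. The correlation of exu and gammaTub37C was -0.071 and that of smg and yl 0.039.

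Settings of the dye moved further values. On Cy3 arrays alone the features called were 370 after the combination, 1 after pyrethrin and 247 after the pepper extract, zld was 0.24 after the pepper extract and yl -0.21 after pyrethrin. Without dye correction 159 features were called after pyrethrin, 1 for the combination over pyrethrin and 1 for pyrethrin over the pepper extract, yl was -0.21 after pyrethrin and -0.061 for pyrethrin over the pepper extract, and smg and yl correlated at 0.741. With the dye effect of the pepper extract pairs (chosen after seeing the data) 188 were called after pyrethrin and 35 for the combination over pyrethrin. The median of the 9 genes after pyrethrin was then -0.13, png -0.22 and yl -0.13, and smg and yl correlated at 0.77. With that of the combination pairs (also chosen after seeing the data) 168, 56 and, for pyrethrin over the pepper extract, 1 were called, zld was 0.023 after pyrethrin, and smg and yl correlated at 0.617. Features called after pyrethrin were 15 with arrays scaled, 16 without the control block, 5 on first spots and 0 in a fit of the 20 arrays. First spots gave png 0.27 after the combination, over 3 pools because pool 6 lacked that spot on an array, and smg and yl correlated at 0.645 on first and 0.572 on second spots, 0.259 on Cy3 arrays and 0.475 without the arrays with foreign titles, where zld was 0.11 after the pepper extract.

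Leaving out 1 pool at a time, the features called ranged from 0 to 3 after the combination, from 0 to 13 after pyrethrin, from 0 to 1 for the combination over pyrethrin and from 0 to 1 for pyrethrin over the pepper extract. smg was -0.11 after the combination without pool 6, and smg and yl correlated at 0.756 to 0.842. Fits without a pyrethrin pool had no control block. The fit with the replicate number as a block called 0 features in each difference between treatments (426, 1264 and 427 at an unadjusted p below 0.05 for the combination over the pepper extract, the combination over pyrethrin and pyrethrin over the pepper extract), and changed no call for the 9 genes. In it, the combination over pyrethrin was 0.40 for yps, 0.83 for gammaTub37C and -0.47 for yl. The causes of these differences were not tested. Array number, with 4 pools per treatment and 1 array per pyrethrin pool, limits the precision.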

Other observations

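Nearest neighbours of single genes were looked up after the values were seen, as correlations over the 12 pools among 1922 other genes, given as descriptions. gammaTub37C was most like Droj2 (r = 0.952), a DnaJ-type chaperone, CG8531 (0.951) and CG30046 (0.948), and most opposite to ana (-0.97), a secreted glycoprotein of the larval brain. png was most like Ada2b (0.953), a subunit of histone acetyltransferase complexes. yl was most like hob (0.918) and the ribosomal protein genes RpS28b (0.916) and RpS15Ab (0.906), and among its most opposite genes was flr (-0.896), the actin disassembly factor of the capu and spir partner list. RpS28b was also among the 6 genes most like smg (0.789).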
